A study of Mus musculus with 3 samples.

Results

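Small nucleolar RNA (snoRNA) host genes and the gene of the RNase P RNA were examined in newly made RNA of a mouse pancreatic cancer line. The members are 8 of the 22658 gene models in the files, taken by name: the non-coding host genes Snhg1, Snhg3, Snhg5, Snhg8, Snhg12, Gas5 and 1110038B12Rik, and Rpph1. All 8 passed the expression minimum, with 7915 models passing it in all. They were selected on their RPKM values and ratios in these same libraries, so what follows describes them and tests nothing.

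SnoRNAs guide chemical modification of ribosomal RNA: the box C/D class guides 2′-O-methylation and the box H/ACA class guides pseudouridylation. In mammals most of them lie in introns of a host gene and are trimmed out after splicing, so making the host transcript also makes the snoRNA. Many host genes start with a C followed by further pyrimidines, the 5′ terminal oligopyrimidine (5′TOP) start that they share with ribosomal protein genes. Rpph1 is of another kind. It is a short gene read by RNA polymerase III, and its RNA is the catalytic subunit of RNase P, which removes the 5′ leader of transfer RNA precursors.

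The cells were NB490 carrying, under puromycin selection, a PDX1 shRNA that doxycycline switches on. PDX1 is a transcription factor of pancreas development. The 3 libraries came from uninduced cells (0 h of doxycycline), cells given doxycycline for 48 h, and cells grown out during more than 3 weeks of doxycycline, and all 3 cultures carried the shRNA construct. Newly made RNA was labelled with 2 mM bromouridine for 30 min and captured with an antibody (Bru-seq). There was 1 library per condition, so no difference below has a replicate check. No library of doxycycline alone was used, so the drug and the shRNA cannot be told apart.

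The start regions of the 7 host genes are shown first because the 5′TOP motif described above lies at the start. Whether the start sequence bears on the ratios below was not tested. RefSeq sequence of GRCm38.p6 was matched by symbol for 7 of the 8 genes, all but Rpph1. Each line holds the 50 bases before the start and then the first 50 bases of the transcript. Capitals mark an unbroken run of C and T over the start base, and TATAAA on the gene's strand where its first base lies 40 to 20 bases before the start. That stretch was chosen after the sequences were seen. Gas5 and 1110038B12Rik have 2 starts in the table, and the one whose gene length is nearer to the files is shown. For Gas5 that is the second, with 3374 bp against 3372 bp in the files, while the first gives 3939 bp. For 1110038B12Rik it is the first, with 2237 bp against 2236 bp in the files, and the second gives 2234 bp.
Snhg1 (chr19:8723437-8723536, plus strand): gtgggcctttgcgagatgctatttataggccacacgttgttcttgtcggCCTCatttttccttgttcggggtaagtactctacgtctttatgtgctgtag
Gas5 (chr1:161035116-161035215, plus strand): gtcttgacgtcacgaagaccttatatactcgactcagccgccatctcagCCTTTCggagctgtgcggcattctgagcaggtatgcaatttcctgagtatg
Snhg5 (chr9:88522848-88522947, minus strand): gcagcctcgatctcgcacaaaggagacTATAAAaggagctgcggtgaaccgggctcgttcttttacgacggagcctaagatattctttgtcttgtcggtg
1110038B12Rik (chr17:34952422-34952521, minus strand): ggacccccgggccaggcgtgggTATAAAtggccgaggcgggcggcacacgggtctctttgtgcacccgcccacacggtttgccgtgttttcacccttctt
Snhg8 (chr3:123508287-123508386, minus strand): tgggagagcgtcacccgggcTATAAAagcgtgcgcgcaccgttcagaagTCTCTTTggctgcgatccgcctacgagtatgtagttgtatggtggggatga
Snhg12 (chr4:132308628-132308727, plus strand): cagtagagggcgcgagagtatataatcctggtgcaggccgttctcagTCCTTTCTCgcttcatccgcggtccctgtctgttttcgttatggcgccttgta
Snhg3 (chr4:132353637-132353736, minus strand): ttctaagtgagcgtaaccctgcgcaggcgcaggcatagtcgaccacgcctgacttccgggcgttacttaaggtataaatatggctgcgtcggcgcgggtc

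A run of at least 4 C and T letters covered the start shown in 4 of the 7 host genes and 5 of all 9 listed starts, and 14.0% of the 32851 promoters in the table have one. The run had 9 letters in Snhg12, 7 in Snhg8, 6 in Gas5 and 4 in Snhg1. It began 1 base before the start in Snhg8, Gas5 and Snhg1, whose start base was C. In Snhg12 it began 3 bases before the start, and the start base was T. A run counted here is therefore not always a C start followed by pyrimidines. The minimum of 4 letters was not part of the plan, and the run of Snhg1 only just meets it. With a minimum of 5, 6 or 8 letters the share of all promoters was 10.1%, 7.25% and 3.86%. Of the starts shown only that of Snhg12 reaches 8. Snhg3, Snhg5 and the first start of 1110038B12Rik lie on G, as does the first start of Gas5, while the second start of 1110038B12Rik has a run of 7. TATAAA lay 23 bases before the start in Snhg5, 30 in Snhg8 and 28 in 1110038B12Rik. Across the table, 1.99% of promoters have it in that stretch. In Snhg3 the letters TATAAA stand 23 bases into the annotated transcript. The E-box CACGTG was searched on both strands of the 300-base promoters (250 before and 50 after the start) and had 0 matches in the 9 starts of these genes, against 7.15% of all promoters. The octamer ATTTGCAT also had 0, against 1.74%. Snhg1 has TATAAA on the other strand, 29 bases before the start. TATAAG had 1 match, on the other strand of Gas5, against 7.43%. These matches describe letters in a window and do not show binding.

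Behind the values stood 51006774 reads for uninduced cells, 48418864 for 48 h and 41632296 for grown-out cells, of which gene models held 79.3%, 78.1% and 79.4%. Levels are RPKM, reads scaled to model length and library total. Ranges in parentheses are exact 95% intervals, Poisson for a level and conditional binomial for a ratio of RPKM values, and cover counting error only. Pdx1, the shRNA target, had 1.59 RPKM uninduced (1.44 to 1.75), 1.05 at 48 h (0.928 to 1.19) and 1.41 after growing out (1.26 to 1.59). At 48 h it was 0.663 times its uninduced level (0.565 to 0.777). An shRNA is designed against the mRNA, and mRNA was not measured here. Of 10 duct and epithelial markers 8 passed the expression minimum in the labelled pancreatic cancer cells, while Sox9 and Epcam were at most 0.216 and 0.0984 RPKM. Of 37 markers of acinar, endocrine, endothelial, immune and fibroblast cells found in the files, only Cd68 passed it, at 0.994, 0.916 and 0.901 RPKM in time order. Their summed levels lay between 0.0534 and 0.996 RPKM per list and library. The summed level of the duct and epithelial markers was 158 RPKM uninduced, 90.5 at 48 h and 88.4 in grown-out cells. Without Spp1, which had 98.6 RPKM uninduced and 32.3 in grown-out cells, the other 9 summed to 59.0, 50.5 and 56.1 RPKM in time order. The part of cell composition in the results below was not tested. In bulk cells, fewer cells that transcribe a gene and less RNA per cell cannot be told apart.

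The 7 host genes were all lower at 48 h of doxycycline than in uninduced cells, and 5 of them were higher in the grown-out library than in the uninduced one, beyond counting error. Rpph1 was higher than uninduced in both doxycycline libraries. Of all gene model reads, the 8 models together held 0.0749% uninduced, 0.0572% at 48 h and 0.0931% after growing out. Snhg1 alone made up 0.0432%, 0.0349% and 0.0520% in the same order.

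**Figure D1:**
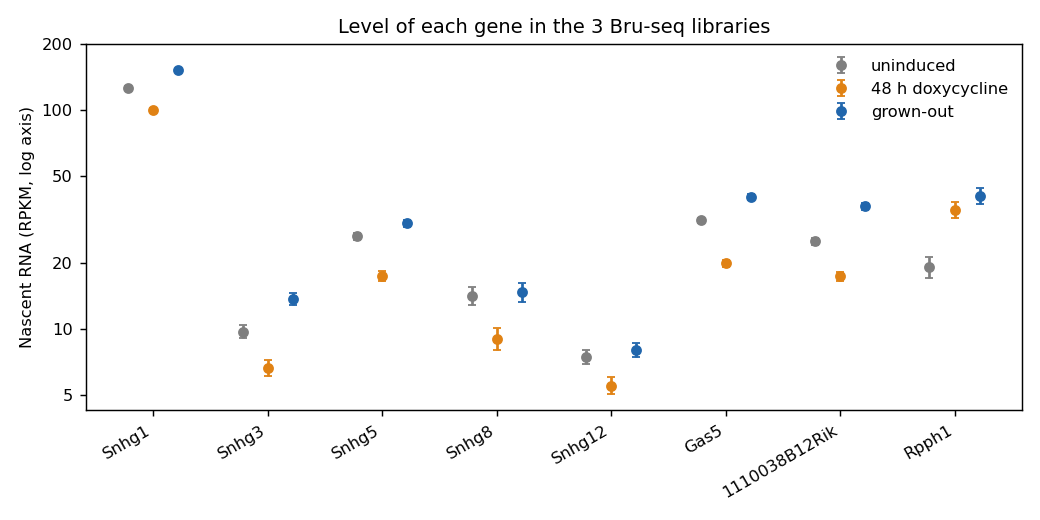
Level of each of the 8 genes (RPKM on a log axis) in the uninduced, 48 h doxycycline and grown-out library, with exact Poisson 95% intervals as bars. In every host gene the 48 h point is the lowest of the 3, and in Rpph1 the uninduced point is.

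Among hosts of box C/D snoRNAs, Snhg1 was by far the most transcribed. Snhg1 is the host gene of U22 and several further box C/D snoRNAs. It lies on chromosome 19 at 8797977 to 8800816, plus strand, and its level was 126 RPKM uninduced (124 to 128), 100.4 at 48 h (98.7 to 102) and 152 after growing out (150 to 154). The 3 intervals do not overlap, and the order is grown-out, uninduced, 48 h. Snhg1 ranked 5th among the 7915 measured genes in the uninduced and 48 h libraries and 3rd in the grown-out one. Against uninduced cells the 48 h level was 1.26-fold lower (1.23 to 1.28) and the grown-out level 1.21-fold higher (1.18 to 1.23).

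Gas5, growth arrest-specific 5, is a host of box C/D snoRNAs whose RNA is known to build up in cells that stop growing. On chromosome 1 at 162965297 to 162968668, plus strand, it had 31.4 RPKM uninduced (30.5 to 32.2), 19.96 at 48 h (19.3 to 20.7) and 40.05 after growing out (39.0 to 41.1). Relative to uninduced cells, Gas5 was 1.57-fold lower at 48 h (1.502 to 1.64) and 1.28-fold higher after growing out (1.23 to 1.33). Grown-out cells therefore stood 2.01-fold above 48 h cells (1.92 to 2.098). Gas5 ranked 39th, 97th and 24th of the measured genes in time order.

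1110038B12Rik is a non-coding gene with a Snord52 model inside it. It lies on chromosome 17 at 35087181 to 35089416, minus strand, and had 25.2 RPKM uninduced (24.3 to 26.2), 17.4 at 48 h (16.6 to 18.2) and 36.3 after growing out (35.1 to 37.6). Of the 7 host genes it had the highest ratio of grown-out to uninduced, 1.44-fold (1.37 to 1.52), and of grown-out to 48 h, 2.09-fold (1.97 to 2.21). The intervals of Snhg3 overlap both, and that of Gas5 overlaps the one of grown-out to 48 h. At 48 h 1110038B12Rik was 1.45-fold below the uninduced level (1.37 to 1.54).

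Snhg5, a mouse U50 host gene, lies on chromosome 9 at 88415891 to 88417735, minus strand. Its level was 26.4 RPKM uninduced (25.4 to 27.5), 17.5 at 48 h (16.6 to 18.4) and 30.3 after growing out (29.1 to 31.6). In grown-out cells it was thus 1.15-fold above the uninduced level (1.08 to 1.21), less than 1110038B12Rik, whose interval lies wholly higher. At 48 h Snhg5 was 1.51-fold lower than in uninduced cells (1.42 to 1.61). It and 1110038B12Rik had nearly the same level at 48 h, with intervals that overlap, and changed places between uninduced and grown-out cells.

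Snhg3, Snhg8 and Snhg12 are hosts of box H/ACA snoRNAs and were transcribed at lower levels. Snhg3, the U17 host gene (chromosome 4, 131907848 to 131909601, minus strand), had 9.73 RPKM uninduced (9.09 to 10.4), 6.67 at 48 h (6.13 to 7.24) and 13.7 after growing out (12.8 to 14.6). Against uninduced cells Snhg3 was 1.46-fold lower at 48 h (1.31 to 1.62) and 1.41-fold higher after growing out (1.28 to 1.54). Its 3 intervals do not overlap, as for Snhg1, Gas5, Snhg5 and 1110038B12Rik.

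Snhg8 (chromosome 3, 123210470 to 123211254, minus strand) had 14.2 RPKM uninduced (12.9 to 15.5), 8.998 at 48 h (7.98 to 10.1) and 14.7 after growing out (13.3 to 16.3). It had the largest 48 h ratio of the hosts, 1.58-fold lower (1.36 to 1.83), on 285 reads at 48 h against 474 uninduced. The interval of Snhg8 overlaps those of all other hosts but Snhg1. Its grown-out and uninduced levels could not be told apart at this depth, with a ratio of 1.04 (0.907 to 1.19).

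Snhg12 (chromosome 4, 131864593 to 131866939, plus strand) also holds a box C/D model, Snord99. It was the least transcribed of the 8 genes, with 7.46 RPKM uninduced (6.94 to 8.02), 5.52 at 48 h (5.06 to 6.01) and 8.02 after growing out (7.42 to 8.66). At 48 h Snhg12 was 1.35-fold below its uninduced level (1.21 to 1.51). The grown-out level was not separated from the uninduced one, with a ratio of 1.07 (0.967 to 1.19).

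Within each library the host genes kept nearly one order: Snhg1, then Gas5, then Snhg5 and 1110038B12Rik, then Snhg8, Snhg3 and Snhg12. The highest host level was 16.9 times the lowest in uninduced cells, 18.2 times at 48 h and 19.0 times after growing out. In the uninduced library the intervals of Snhg5 and 1110038B12Rik overlap, and in the grown-out library those of Snhg8 and Snhg3 do.

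Rpph1 encodes the RNase P RNA. Its model of 325 bp on chromosome 14, at 51427122 to 51427446 on the minus strand, held 318, 552 and 549 reads in time order. That is 19.2 RPKM uninduced (17.1 to 21.4), 35.1 at 48 h (32.2 to 38.1) and 40.6 after growing out (37.3 to 44.1). The 48 h level was 1.83-fold above that of uninduced cells (1.59 to 2.11), and after growing out it was 2.12-fold above (1.84 to 2.44). Between grown-out and 48 h cells the ratio was 1.16 (1.03 to 1.30), although the 2 level intervals overlap. Rpph1 ranked 121st uninduced, 26th at 48 h and 23rd in grown-out cells. Its length is close to the 300 bp near which libraries were selected, and the part of size selection in these ratios was not tested.

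**Figure D2:**
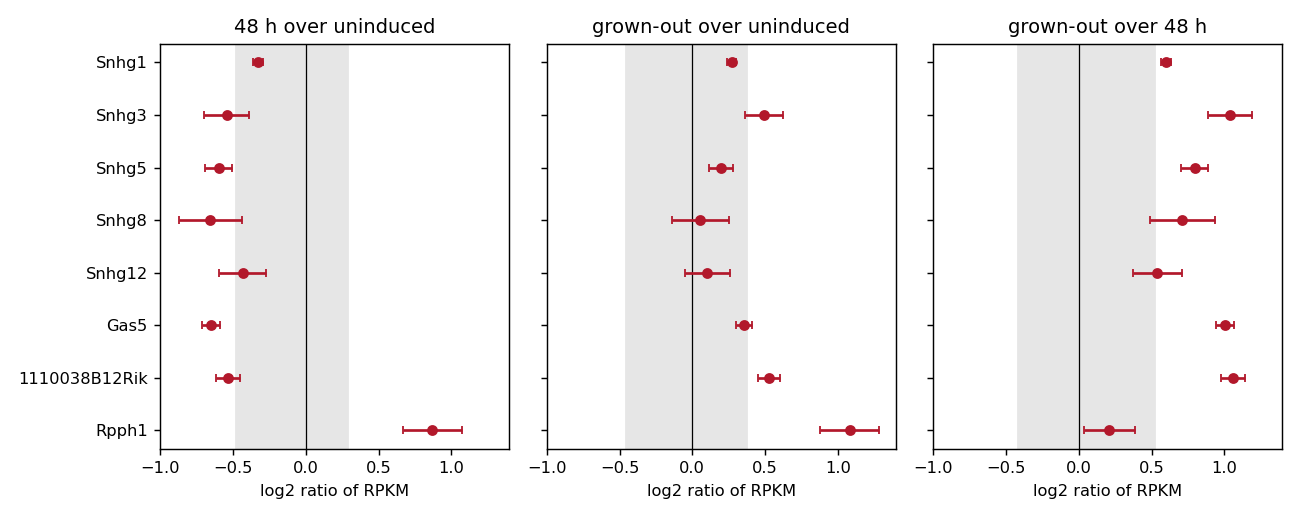
Log2 ratio of RPKM for the 8 genes in the 3 comparisons, with exact conditional binomial 95% intervals as bars; the grey band spans the middle 90% of all 7915 measured genes. At 48 h over uninduced all 7 host genes lie left of 0 and Rpph1 right of the band, and for grown-out over 48 h all 8 lie right of 0.

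For 48 h against uninduced cells the median log2 ratio of the 7 host genes, taken on RPKM plus 0.05, was -0.54, with a range of -0.65 to -0.33, while the median over all 7915 measured genes was 0.00. Gas5, Snhg5 and Snhg8 were past 1.5-fold lower, 3 of 7, in a comparison where 3.31% of measured genes were. Snhg5 fell short of 1.5-fold with a pseudocount of 0.5, with TMM and with DESeq2 size factors, leaving 2. The interval of all 7 lay below no change, which held for 30% of measured genes. None of the 8 genes was past 2-fold, beside 0.0505% of measured genes higher and 0.733% lower. Rpph1 was past 1.5-fold higher, as were 0.43% of measured genes. Since the genes were picked with these ratios known, nothing is read from these shares.

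For grown-out against uninduced cells the host median was 0.27, with a range of 0.05 to 0.53, and that of all measured genes 0.01. None of the 7 hosts was past 1.5-fold in either direction, whereas 1.14% of measured genes were past it higher and 3.03% lower. Snhg1, Snhg3, Snhg5, Gas5 and 1110038B12Rik had intervals above no change, 5 of 7, against 33.6% of measured genes. Rpph1 was past 2-fold higher, as were 0.177% of them, and none of the 8 was past 2-fold lower, as 0.733% were.

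Grown-out cells were also set against 48 h cells. Both libraries enter the comparisons above, so these ratios are no separate evidence. The host median was 0.79, with a range of 0.53 to 1.06, beside 0.01 for all measured genes. Of the 8 genes 6 were past 1.5-fold higher, against 3.66% of measured genes, all but Snhg12 and Rpph1. Snhg3, Gas5 and 1110038B12Rik were past 2-fold, against 0.72%. None of the 8 was lower past 1.5-fold or 2-fold, beside 2.32% and 0.341% of measured genes. All 8 intervals lay above no change, and 35.6% of measured genes lay above it and 32% below. Among all measured genes, 674 or 8.52% had an interval below no change at 48 h and above it in grown-out cells, as 5 of the hosts did. Only 7 measured genes were past 1.5-fold higher in both doxycycline libraries, Rpph1 among them. The other 6 had 4 to 37.3 reads in the uninduced library, whereas Rpph1 had 318. The Rpph1 model, at 325 bp, is close to the length minimum of 300 bp. Without that minimum, genes past 1.5-fold higher than uninduced went from 34 to 73 at 48 h and from 90 to 138 in grown-out cells. How far model length bears on this call was not tested.

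Small RNA models inside the hosts have levels of their own. The files hold 7 of them within 4 of the hosts: Snord22 in Snhg1, Snora16a, Snora44, Snora61 and Snord99 in Snhg12, Snord47 in Gas5 and Snord52 in 1110038B12Rik. For Snhg1, Snhg12 and 1110038B12Rik the host's counted length equals its span minus these models, so the host's length left them out. In Snhg8 and Gas5 further bases were left out, 130 and 91 bp, that no small RNA model used here covers. Snhg3 and Snhg5 hold no such model, and their counted length equals their span. Apart from bases left out, reads over a snoRNA without a model in these files count into the level of its host. Host levels are therefore not free of snoRNA reads.

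**Figure D3:**
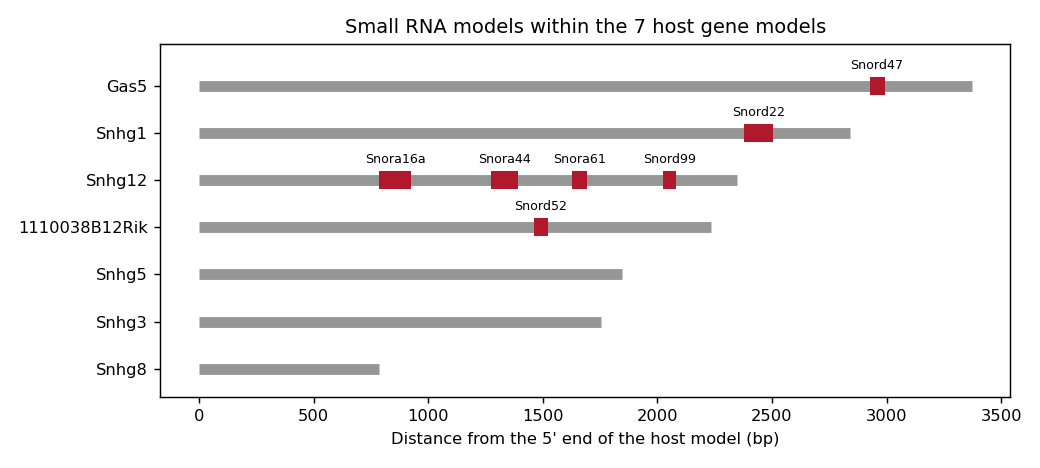
The 7 host gene models drawn to scale from their 5′ end (bp, grey), with the small RNA models of the files inside them (red). Snhg12 holds 4 such models, Gas5, Snhg1 and 1110038B12Rik 1 each, and Snhg5, Snhg3 and Snhg8 none in these files.

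Snord22 was the nested model with most reads, and its level was 184 RPKM uninduced, 142 at 48 h and 158 in grown-out cells. At 48 h it was 1.30-fold below the uninduced level, on 864 against 1181 reads, close to its host. In grown-out cells it was lower than in uninduced cells, at 0.862 times (0.788 to 0.943), while Snhg1 around it was 1.21 times the uninduced level (1.18 to 1.23). The level of Snord22 over that of Snhg1 was 1.46 uninduced, 1.41 at 48 h and 1.04 in grown-out cells.

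Snord47 had the same directions as Gas5. It had 37.1, 21.4 and 49.1 RPKM in time order, which was 0.577 times the uninduced level at 48 h (0.422 to 0.782) and 1.32 times after growing out (1.03 to 1.70). Snord52 had 10.9, 4.78 and 17.2 RPKM on only 32.7, 13.7 and 42.2 reads. All 4 models in Snhg12 were below their uninduced level at 48 h, by 1.22-fold to 1.42-fold, and each of those intervals included no change at 16.3 to 28.1 reads. Libraries were selected near 300 bp, and a read over a nested model may come from the host precursor or from the small RNA. Which of these it was, was not tested.

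**Figure D4:**
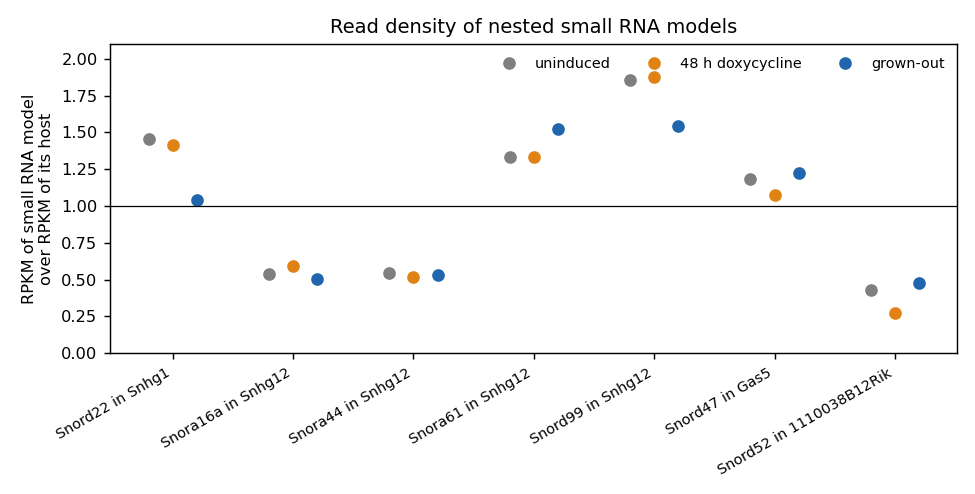
RPKM of each nested small RNA model divided by the RPKM of its host, for the uninduced, 48 h doxycycline and grown-out library. Snord22 in Snhg1 stands at 1.46 and 1.41 in the first 2 libraries and at 1.04 in the grown-out one; all others but Snord47 rest on at most 42.2 reads per library.

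Genes lying beside these 8 were set next to them. Slc3a2, which encodes a subunit of amino acid transporters, starts 117 bp from Snhg1 on the opposite strand. It had 7.53 RPKM uninduced, 5.94 at 48 h and 8.32 in grown-out cells. It was thus 0.789 times the uninduced level at 48 h (0.760 to 0.819). After growing out it was 1.10 times that level (1.06 to 1.14), so both directions were those of Snhg1. Zbtb37, starting 906 bp from Gas5 on the opposite strand, was 0.772 times the uninduced level at 48 h (0.703 to 0.848) and 0.881 times after growing out (0.801 to 0.968), where Gas5 was higher.

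Rcc1, which lies downstream of Snhg3 on the same strand and encodes a regulator of Ran, was not separated from its uninduced level at 48 h, at 0.936 times (0.850 to 1.03), and was 1.39 times it in grown-out cells (1.27 to 1.52). Phactr4, upstream of Snhg3, was within 1.06 times its uninduced level in both libraries. Trnau1ap, which ends 738 bp from Snhg12 on the opposite strand, was higher in both doxycycline libraries, at 1.26 (1.14 to 1.397) and 1.33 times (1.20 to 1.47), against a lower Snhg12 at 48 h. Syncrip, 38655 bp from Snhg5, was 1.12-fold lower at 48 h and 1.10-fold higher in grown-out cells. Zfp949, 25122 bp from Snhg5, was lower in both, at 0.807 and 0.771 times. Prss12, Rab42-ps and Ccnb1ip1 had at most 7 reads per library, and Hspa1b and Ndst3 at most 0.324 RPKM. Wdr74, beyond Snhg1, and Neu1, beyond 1110038B12Rik, had 48 h intervals that included no change. In grown-out cells the interval of Wdr74 did too (0.959 to 1.20), and Neu1 was 1.18 times its uninduced level (1.01 to 1.38). Hspa1b, upstream of 1110038B12Rik, was 1.81 times (1.07 to 3.12) on 37.9 against 25.6 reads. Ndst3, upstream of Snhg8, was 1.08 times (1.01 to 1.15).

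Parp2, a DNA repair gene, starts 174 bp from Rpph1 on the opposite strand, and both are known to share a promoter region. Parp2 had 1.37 RPKM uninduced, 1.15 at 48 h and 1.27 in grown-out cells. It was therefore 0.843 times the uninduced level at 48 h (0.764 to 0.929), where Rpph1 was 1.83 times, and in grown-out cells its interval included no change (0.840 to 1.02). Levels were separated by strand: 38 models nested on the opposite strand of a transcribed gene had a median of 0.00119 times its level, and 13 on its own strand 1.12 times.

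The nearest relative of Rpph1 is Rmrp, the RNA of RNase MRP, which takes part in ribosomal RNA processing and shares most protein subunits with RNase P. Its model of 275 bp lies under the length minimum and, like that of Rpph1, close to the 300 bp of library selection. Rmrp had 36.0 RPKM uninduced (32.9 to 39.3), 39.5 at 48 h (36.2 to 43.0) and 50.7 after growing out (46.6 to 55.0). In grown-out cells it was 1.41 times the uninduced level (1.247 to 1.59), and at 48 h its interval of 0.969 to 1.24 included no change and lay wholly below that of Rpph1. Of the RNase P RNA-like models, Rprl1 held 0 reads in all 3 libraries, Rprl2 held 1 read in each, and Rprl3 held 18, 21 and 24 in time order. Reads that fit both Rpph1 and such a copy make these counts uncertain. The vault RNA gene Vaultrc5 had at most 4 reads. The model named Bc1 counts 163470 bp and had at most 0.00972 RPKM.

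Protein subunits of RNase P and MRP had values on both sides of no change. Of the 7 measured, 0 were past 1.5-fold higher and 2 lower at 48 h, against 0.43% and 3.31% of all measured genes. Pop7 had 0.391 RPKM at 48 h against 0.791 uninduced on 18.8 and 40 reads, and Rpp21 0.486 against 0.839 RPKM. Rpp38 went the other way, with 1.38 RPKM at 48 h against 0.907 uninduced, 1.52-fold higher (1.246 to 1.86). On the scale with the pseudocount it missed 1.5-fold, at a log2 ratio of 0.58. In grown-out cells 0 were past 1.5-fold higher and 1 lower, against 1.14% and 3.03% of all measured genes. The 1 was Pop7, at 0.581 times the uninduced level (0.318 to 1.03). Rpp21 was 0.685 times its uninduced level (0.478 to 0.972). Pop1, the largest subunit, was 1.28-fold higher than uninduced (1.24 to 1.33) and Pop4 was 0.797 times it (0.695 to 0.914). The list median was -0.01 at 48 h and -0.12 in grown-out cells, and the grown-out median became 0.14 with a minimum mean of 2 RPKM. The 48 h median became 0.01 under TMM and DESeq2 size factors.

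Of 29 measured polymerase III subunits and factors none was past 1.5-fold in either comparison with uninduced cells. Of all measured genes 0.43% to 3.31% were, by direction and comparison. The medians of the 29 were 0.06 at 48 h and 0.04 in grown-out cells. The grown-out median was -0.01 with a mean of at least 2 RPKM, 0.06 under TMM and 0.08 under DESeq2 size factors. Polr3g, the subunit that can take the place of Polr3gl, was 1.47-fold higher in grown-out cells (1.37 to 1.57). Bdp1, a subunit of the initiation factor TFIIIB, was 1.14-fold higher at 48 h and 1.29-fold higher in grown-out cells. Polr3c and Gtf3c3 went the other way in grown-out cells, at 0.783 times (0.716 to 0.856) and 0.795 times (0.751 to 0.841). At 48 h 10 of the 29 had an interval above no change and 2 below it, beside 30.1% and 30% of measured genes. In grown-out cells 8 lay above and 6 below, beside 33.6% and 29.5%.

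Further Snhg genes that were no members gave 6 measured models. Snhg4, a host of H/ACA snoRNA, had 15.8, 12.5 and 22.2 RPKM in time order. It was 1.27-fold lower at 48 h and 1.41-fold higher in grown-out cells than in uninduced ones. Snhg7 had 4.62, 3.57 and 5.59 RPKM and Snhg6 12.3, 10.0 and 13.7 RPKM in the same order. Snhg17 and Snhg16, listed as 9430008C03Rik and 1810032O08Rik, had log2 ratios of -0.04 and -0.03 at 48 h. Snhg20, listed as 2810008D09Rik, was 1.31-fold higher at both times, with intervals of 1.03 to 1.66 at 48 h and 1.02 to 1.68 after growing out. The medians were -0.17 at 48 h and 0.23 in grown-out cells. Against uninduced cells 0 of 6 were past 1.5-fold, where 0.43% to 3.31% of measured genes were, by direction and comparison. The 48 h median was -0.30 with a mean of at least 2 RPKM, and with no minimum RPKM the medians were -0.04 and 0.15.

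Protein-coding genes that hold a model of a snoRNA or of a small Cajal body RNA (Scarna) were examined as well. Of 60 such genes, found by position, 59 were measured, and their median was 0.04 at 48 h and 0.08 in grown-out cells, or 0.12 under DESeq2 size factors. None was past 1.5-fold against uninduced cells, where 0.43% to 3.31% of measured genes were, by direction and comparison. At 48 h 23 had an interval above no change and 18 below it, beside 30.1% and 30% of measured genes. In grown-out cells 31 lay above and 13 below, beside 33.6% and 29.5%. Rbmx, which encodes an RNA-binding protein, was 1.45-fold lower at 48 h (6.20 against 8.97 RPKM), and Rpl3 1.26-fold lower. Dcaf5, whose only nested model is Scarna3b, was 1.36-fold higher at 48 h. In grown-out cells Ncl, which encodes nucleolin, was 1.48-fold and Eif4g1, a translation initiation factor gene, 1.38-fold higher. The difference between these genes and the non-coding hosts was not tested.

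Of the 59 measured coding hosts 22 were cytosolic ribosomal protein genes, which are 22 of 79 in that list. The 79 had a median of 0.06 at 48 h and -0.02 in grown-out cells. Of them 0 were past 1.5-fold, where 0.43% to 3.31% of measured genes were, by direction and comparison. The grown-out median became 0.01 under TMM and 0.03 under DESeq2 size factors. Among them Fau was 1.28-fold and Rpl36 1.26-fold higher at 48 h, and Rpl14 1.36-fold higher and Rpl39 1.28-fold lower in grown-out cells. A 5′TOP start is known for ribosomal protein genes as a class.

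**Figure D5:**
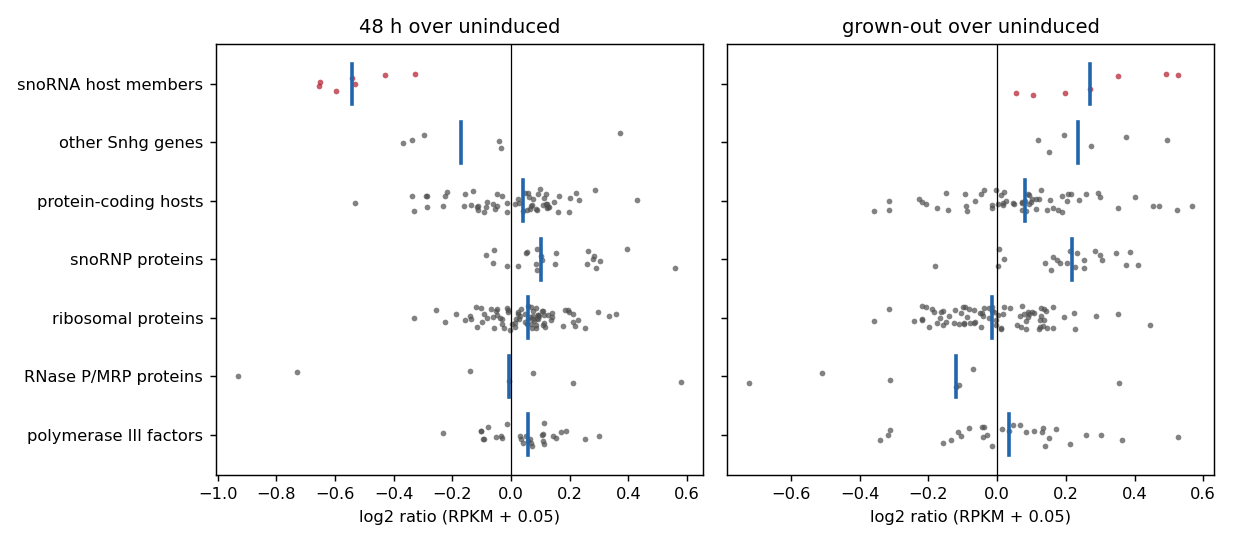
Log2 ratio of RPKM plus 0.05 for each measured gene (points) of the 7 host genes and 6 related lists, at 48 h (left) and in grown-out cells (right) over uninduced cells, with list medians as blue bars. At 48 h the host bar lies at -0.54 and those of protein-coding hosts and ribosomal protein genes at 0.04 and 0.06.

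Genes of proteins that bind or assemble snoRNAs formed a further list. Of 22 measured, 12 had an interval above no change at 48 h and 0 below it, against 30.1% and 30% of measured genes. In grown-out cells 18 lay above and 0 below, against 33.6% and 29.5%. None was past 1.5-fold, where 0.43% to 3.31% of measured genes were, by direction and comparison. Nop10, a small H/ACA protein, was 1.48-fold higher at 48 h (1.20 to 1.83), with 216 against 154 reads, and Nhp2 of the same complex 1.32-fold higher. In grown-out cells Fbl, which encodes the box C/D methyltransferase fibrillarin, was 1.34-fold higher (1.22 to 1.47) and Dkc1, the pseudouridine synthase dyskerin, 1.31-fold higher (1.21 to 1.42). The list medians were 0.10 and 0.22.

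The genes whose pair of log2 ratios against uninduced cells lay nearest to that of Gas5, over 3 libraries, were Hist1h1c, Mlph and Vnn1, at distances of 0.00721, 0.0289 and 0.0369. Nearest to Rpph1 by the same rule were Mrps26, Npm3 and Hist1h4b, at distances of 0.132, 0.168 and 0.255, on 30.2, 37.3 and 8.58 uninduced reads. 2810403D21Rik, left out by its name, lay nearer than Hist1h4b. Its log2 ratios were 1.05 at 48 h and 1.02 in grown-out cells, on 20.25 uninduced reads, beside 0.87 and 1.08 for Rpph1. Few measured genes thus stood near Rpph1, and those that did were counted on far fewer reads.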

How the data were processed

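Bru-seq libraries of NB490 cells were analysed, 1 per condition, and groups were taken from the labels. TopHat 1.4.1, Bowtie 0.12.8, bedtools 2.16.2, CASAVA 1.8.2 and the human build hg19 are named in the submitters' processing notes. The models carry mouse symbols, and 7 of the 8 genes have their GRCm38.p6 length within 1 bp. However, 0 of the 8 start where GRCm38.p6 puts them. The last model on chromosome 1 ends at 197002909, past the last GRCm38.p6 gene end of 195291439. The coordinates are thus not those of GRCm38.p6, and their mouse build is not named in the sources used here. Per the file headers, the deposited estimated counts cover whole gene models, introns and exons together; 47.3% to 48.5% of those above 0 were whole within 0.01 read. Per the file headers, the deposited RPKM was scaled by counted length and library total, and a further deposited signal column holds reads per base.

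Measured genes had a mean of at least 0.5 RPKM and a counted length of at least 300 bp; 138 models with a repeated symbol or over 3000000 bp were left out. Ratios were log2 of RPKM plus 0.05, which understates changes of low genes, and calls were sizes of 1.5-fold or 2-fold. Intervals used the estimated counts as reads, and repeat reads of 1 molecule could make them too narrow. Interval and call code was tested on simulated data. The rule for named genes took all members, their neighbours and nested models, up to 4 genes with the largest ratio per list and comparison, and the 3 nearest patterns for Gas5 and Rpph1. A neighbouring gene is not reported here. Members and lists were chosen with earlier results of these data known. Alternatives changed the pseudocount, filters, and scaling (edgeR 4.0.16 TMM, DESeq2 1.42.0 size factors, estimated counts rounded). Python 3.11.15 with scipy 1.17.1 was used. Gene names and sequences came from RefSeq tables of GRCm38.p6.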

Additional observations from a re-analysis of the deposited data

Results flagged for a closer look

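Snhg1, Snhg3, Snhg5, Gas5 and 1110038B12Rik lay below the uninduced library at 48 h and above it in grown-out cells, with intervals leaving out no change on opposite sides. The log2 ratio of grown-out to 48 h was 0.60 for Snhg1, 1.03 for Snhg3, 0.79 for Snhg5, 1.00 for Gas5 and 1.06 for 1110038B12Rik. With 1 library per condition the difference was not tested.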

How the results depend on the processing

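Under both other pseudocounts and the 3 other scalings, the log2 ratios of all 8 genes and the host median kept their sign in each of the 3 comparisons. The scalings moved ratios by at most 0.04. The host median stayed between -0.54 and -0.52 at 48 h and between 0.26 and 0.31 in grown-out cells against uninduced cells, the 0.31 under DESeq2 size factors, and between 0.78 and 0.82 for grown-out against 48 h. Reads per base, which are not scaled for depth, turned the host median to -0.0232 for grown-out against uninduced and gave 0.58 for grown-out against 48 h, as the libraries' totals differ. Counts of measured genes past 1.5-fold differed with the pseudocount and with the filters, and the filters also change how many genes are counted. For 48 h against uninduced, 34 higher and 262 lower became 14 and 126 with a pseudocount of 0.5, 9 and 94 with a mean of at least 2 RPKM, and 178 and 644 with no minimum RPKM; without a length minimum 73 were higher. For grown-out against uninduced, 90 higher and 240 lower became 27 and 108, 26 and 62, and 266 and 915 in the same order, with 138 higher without a length minimum. For grown-out against 48 h, 290 higher and 184 lower became 124 and 49, 103 and 32, and 609 and 781. No paired analysis was possible because each condition had 1 library. At this depth Snhg8 and Snhg12 could not be separated between grown-out and uninduced cells.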
